A study of Mus musculus with 2 samples.

Results

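The transcripts described here are those that the GENCODE M21 annotation types as retained intron and that were expressed in mouse blood neutrophils. A retained-intron transcript of that annotation is a non-coding transcript of a gene that holds sequence which is intronic in the gene's other transcripts. Members were chosen by their level in the alignment-free transcript tables, with a TPM (a level per transcript length on a scale common to both libraries) of at least 1 in both libraries. This rule took 5522 of the 21848 annotated retained-intron transcripts, which is 25.3%, out of 141767 transcripts in all. Of all transcripts, 16.4% passed the same threshold, against 19.3% of protein-coding transcripts and 14.4% of those typed as targets of nonsense-mediated decay. The members came from 3081 genes of the 9421 that have an annotated retained-intron transcript. Because TPM chose the members, their levels and shares are a description, and nothing is tested with them.

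Introns are normally removed while a gene is being transcribed, by the spliceosome, which reads short signals at both ends of the intron. When an intron stays in, the transcript may be held in the nucleus, be spliced later, or reach the cytoplasm, where a stop codon inside the intron can send it to nonsense-mediated decay. Intron retention has been described as part of granulocyte maturation, with Lmnb1, the gene of the nuclear lamina protein lamin B1, as a known example.

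The study sequenced total RNA from neutrophils of peripheral blood of adult C57BL/6J mice aged 5 to 6 weeks. It made 2 libraries of a single group, labelled as biological replicates 1 and 2. Both carry the same donor identifier, sex was not collected, and no other condition was sequenced. The spread between the libraries may therefore be technical, and no test between conditions was possible. Estimated counts in the alignment-free tables summed to 28957410 in replicate 1 and 27088642 in replicate 2.

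The neutrophil label was checked against marker genes at gene level. All 7 neutrophil markers passed a TPM of 1 in both libraries, with a median of 527 in replicate 1 and 428 in replicate 2. The lowest of the 7 had only 2.76 and 2.78 TPM, against 70.8 and 63.7 for the lowest B-cell marker. Markers of other blood cells were present too. The 6 B-cell markers had medians of 106 and 92.7 TPM, the 4 erythroid markers 992 and 884, the 4 T-cell markers 6.89 and 6.51, and the 3 monocyte markers 11.0 and 9.91. No marker of any of these lists was at 0 in both libraries. In bulk RNA, the number of cells of a type and the RNA per cell cannot be told apart. Likewise, mature transcripts with a retained intron and precursors that were still being spliced cannot be told apart in total RNA.

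The TPM scale of these tables was filled mostly by small RNAs. Genes of small nuclear RNA held 52.7% of all TPM in replicate 1 and 56.9% in replicate 2, while protein-coding transcripts held 11.3% and 10.5%. A TPM of 1 was therefore a stricter bar than it would be among messenger RNAs alone. On a scale filled by transcripts of protein-coding genes alone, it would equal 5.94 in replicate 1 and 6.57 in replicate 2, and 12200 retained-intron transcripts would have passed a bar of 1.

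To show what is retained, 8 introns held whole by members are given here, from the members with the highest TPM among those whose intron is at most 300 bases long. The sequences run 5′ to 3′ on the strand of the gene and come from the GENCODE M21 transcript sequences (GRCm38, the assembly named mm10). Capitals mark the first 2 and last 2 bases, where the spliceosome cuts. Only introns between coding exons with usual end bases were taken, 1 per gene.
Ddx5-202, chr11:106784019-106784100, minus strand: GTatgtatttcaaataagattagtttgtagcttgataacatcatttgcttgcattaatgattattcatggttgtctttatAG
Rps20-201, chr4:3835292-3835483, minus strand: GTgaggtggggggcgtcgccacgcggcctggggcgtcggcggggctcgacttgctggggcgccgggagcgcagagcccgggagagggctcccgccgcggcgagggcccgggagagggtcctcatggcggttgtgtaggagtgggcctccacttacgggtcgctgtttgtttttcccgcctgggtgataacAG
Calr-204, chr8:84844784-84844870, minus strand: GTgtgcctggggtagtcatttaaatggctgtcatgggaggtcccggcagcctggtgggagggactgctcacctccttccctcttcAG
Gapdh-206, chr6:125162394-125162477, minus strand: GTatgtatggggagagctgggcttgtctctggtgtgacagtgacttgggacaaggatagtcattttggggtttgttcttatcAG
Fth1-202, chr19:9984328-9984559, plus strand: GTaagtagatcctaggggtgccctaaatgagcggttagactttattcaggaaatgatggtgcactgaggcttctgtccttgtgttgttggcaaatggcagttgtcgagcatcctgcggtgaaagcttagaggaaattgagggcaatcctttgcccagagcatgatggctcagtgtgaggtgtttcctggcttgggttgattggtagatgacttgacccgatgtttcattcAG
Clk1-204, chr1:58417180-58417266, minus strand: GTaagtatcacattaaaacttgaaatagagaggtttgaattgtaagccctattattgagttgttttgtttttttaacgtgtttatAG
Lilr4b-206, chr10:51480754-51480905, plus strand: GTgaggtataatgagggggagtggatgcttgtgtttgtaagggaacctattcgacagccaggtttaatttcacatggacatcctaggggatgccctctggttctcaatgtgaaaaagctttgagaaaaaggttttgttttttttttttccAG
Hnrnpk-227, chr13:58393775-58393852, minus strand: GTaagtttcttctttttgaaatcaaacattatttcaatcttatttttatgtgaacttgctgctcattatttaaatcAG

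These 8 introns differed widely in composition. GC content was 24.4% in the Hnrnpk intron and 26.8% in that of Ddx5, and reached 71.9% in the Rps20 intron. Read in the frame of the exon before it, the intron held a stop codon in 7 of the 8. The exception was Gapdh, the gene of a glycolytic enzyme: its intron of 84 bases had no stop in frame and a length that is a multiple of 3, so the reading frame runs through it. Calr encodes calreticulin, a chaperone of the endoplasmic reticulum, and Fth1 the heavy chain of ferritin, which stores iron. Calr-204 had TPM values of 62.5 and 54.5 in replicates 1 and 2, Gapdh-206 had 56.4 and 47.1, and Fth1-202 had 47.7 and 44.7. All 3 were lower in replicate 2.

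Most members were expressed at low levels. The median member had a TPM of 2.58 in replicate 1 and 2.24 in replicate 2 (2.41 ± 0.24, SD, n = 2). The median estimated count behind a member was 196 and 180, and 5517 of the 5522 had at least 10 counts in both libraries. By mean TPM, 2128 members lay between 1 and 2, 2333 between 2 and 5, 676 between 5 and 10, 351 between 10 and 50, 24 between 50 and 100 and 10 at 100 or more. The 10 highest held 7.73% of the members' summed TPM in replicate 1 and 7.11% in replicate 2, and the 100 highest held 22.7% in each. Expression was thus spread over many transcripts rather than held by a few. Together the members held 15.4% and 14.8% of the TPM of protein-coding genes, and 8.35% and 8.11% of all estimated counts. Expressed protein-coding transcripts had a median TPM of 3.43 and 3.04.

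Around the threshold, Zcchc9-203 was just inside with TPM values of 1.36976 and 1.00006, as were Sf3b6-205 with 1.00036 and 1.01685 and Dlst-203 with 1.00041 and 1.17781. Just outside were Sacm1l-204 with 0.999977 and 1.10159, Ash1l-204 with 1.2418 and 0.999599, and Syvn1-205 with 0.998875 and 1.36493. A further 2016 annotated retained-intron transcripts passed in 1 library alone, 1342 in replicate 1 and 674 in replicate 2, and 4141 were listed at 0 in both.

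The member with the highest mean TPM was Hbb-bs-202, from an adult beta-globin gene of red cells. Its TPM was 357 in replicate 1 and 181 in replicate 2 (269 ± 125, SD, n = 2), the widest gap among the highest members named here. The alpha-globin member Hba-a1-202 had 151 and 107 TPM. Globin genes exist as near-identical copies, so the split of reads among their transcripts is uncertain. The alignment-based tables on M21, a second estimate from the same reads, gave Hbb-bs-202 an IsoPct (the percent of the gene's TPM held by the transcript) of 14.0 and 6.79, whereas those on the older M4 annotation gave 77.9 and 64.5.

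Genes of neutrophil function followed. Il1b-203, from the gene of the inflammatory cytokine interleukin 1 beta, had TPM values of 286 and 244 (265 ± 29.7, SD, n = 2), next to 1525 and 1253 for the whole gene. It held 18.7% and 19.4% of the gene's TPM, and its IsoPct was higher, at 29.2 and 29.7. S100a8-202, from a subunit gene of the antimicrobial protein calprotectin, had TPM values of 214 and 176 and a share of 19.0% and 17.8%, but an IsoPct of only 5.84 and 4.43. For both genes most of the TPM therefore lay in other transcripts in both tables. Il1b-203 also overlaps a gene on the opposite strand, and whether the tables counted reads by strand is not given in the sources used here.

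Other members of immune genes held larger parts of their gene. Lilrb4a-206, from an inhibitory receptor of myeloid cells, had TPM values of 168 and 142 and a share of 61.0% and 59.0%, with an IsoPct of 46.6 and 46.1. Ptpn6-204, from the phosphatase gene that dampens receptor signalling in blood cells, had TPM values of 114 and 85.3 and a share of 42.2% and 36.8%. H2-Eb1-204, from a gene of major histocompatibility complex (MHC) class II, had TPM values of 152 and 144 and a share of 53.1% and 51.0%. Its IsoPct was lower, at 36.8 and 40.8, and Lilrb4a-206 and H2-Eb1-204 each overlap a gene on the other strand. Lilrb4a-206 also overlaps another long gene on the same strand. Cd74-205, from the invariant chain that accompanies MHC class II, had TPM values of 255 and 211 and a share of 33.8% and 31.7%. The alignment-based tables gave it only 14.5 and 12.8 TPM and an IsoPct of 4.34 and 4.09, so the tables disagreed on it by more than the libraries did.

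Genes of general cell functions were also among the 15 highest. Rpl13a-213, from a gene of the large ribosomal subunit, had TPM values of 214 and 243 and a share of 60.4% and 61.5%. It overlaps another long gene on the same strand. Rps20-201, from a gene of the small subunit, had TPM values of 110 and 97.7 and the largest share among these members, 71.3% and 76.7%. Its IsoPct of 80.8 and 86.7 was higher still, and the retained intron is the GC-rich one printed above. Ddx5-202, from an RNA helicase gene that takes part in splicing, had TPM values of 134 and 89.4 and a share of 16.4% and 13.4%. Itm2b-202 had 90.3 and 79.9 TPM and Shisa5-215 had 66.0 and 107 TPM. Hnrnpa2b1-208, from a gene of a nuclear RNA-binding protein, had 92.1 and 71.2 TPM. Among the 15 highest, only Il1b-203, Rps20-201, Ddx5-202 and Hnrnpa2b1-208 hold an intron whole. Shisa5-215 and Rpl13a-213 were the only ones named here with a higher TPM in replicate 2, and for Shisa5-215 the alignment-based tables had the reverse order, 19.4 and 9.41.

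**Figure D1:**
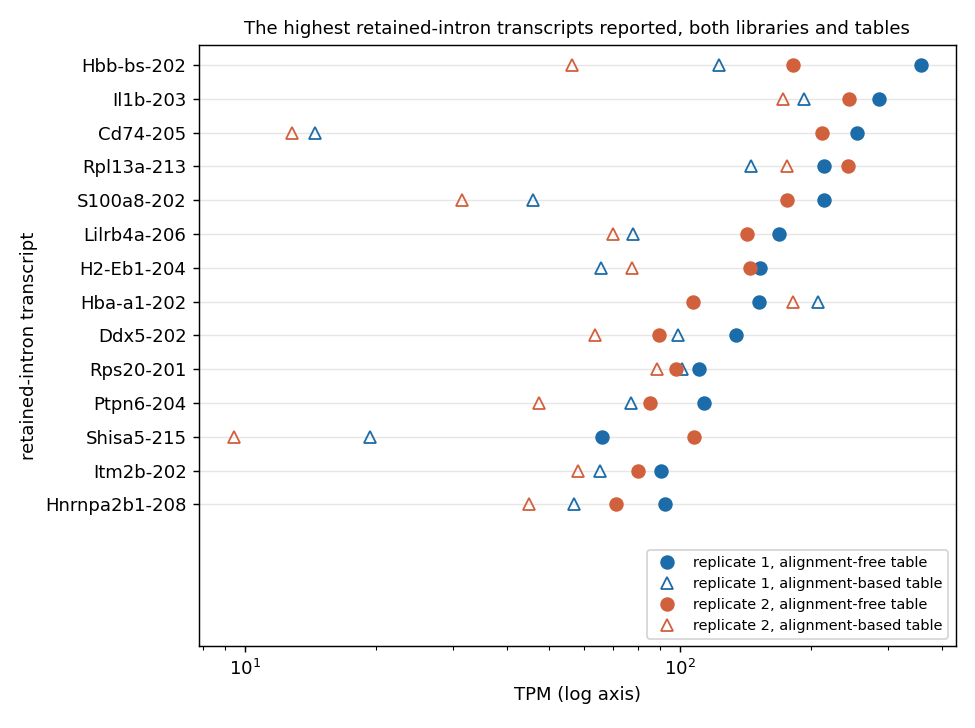
TPM (log axis) of the retained-intron transcripts with the highest mean TPM that are reported here, in replicate 1 (blue) and replicate 2 (orange), from the alignment-free tables (filled circles) and the alignment-based tables (open triangles). Circles run from 66.0 to 357 TPM; Cd74-205, S100a8-202 and Shisa5-215 have triangles far to the left of their circles, while Rps20-201 has all 4 marks close together.

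How much of the parent gene a member held was next described in both kinds of table. In the alignment-free tables the median member held 14.0% of its gene's TPM in replicate 1 and 13.8% in replicate 2 (13.9 ± 0.17, SD, n = 2). Median IsoPct in the alignment-based tables was 11.9 in both. By estimated counts, which are not divided by length, the median share was 7.66%. Members were shorter than expressed protein-coding transcripts, with a median length of 844 bases against 2318. For comparison, expressed protein-coding transcripts held a median of 31.7% and 32.4% of their gene's TPM, and transcripts typed as targets of nonsense-mediated decay 16.5% and 16.4%.

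A minority of members dominated their gene. By TPM, 183 members (3.31%) held at least 50% of the gene in both libraries, by IsoPct 129 did, and 84 did by both measures. With replicate 1 alone 290 members did by TPM, and with replicate 2 alone 264. Mean share was below 10% in 1836 members, 597 of them below 5%. Shares were similar in the libraries: the median absolute difference was 2.09 percentage points for share and 2.36 for IsoPct. Across members, mean share and mean IsoPct had a Pearson r of 0.74 and a Spearman rho of 0.72 (n = 5522 transcripts, which share the same reads and are not independent).

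The highest shares were ranked among genes with a summed TPM of at least 10 in both libraries. Cd83-202, from a surface protein gene of activated leukocytes, had TPM values of 11.2 and 9.70, which was 95.6% and 95.0% of the gene, with an IsoPct of 98.0 and 98.1. Chic2-202 held 88.2% and 86.4%, with an IsoPct of 85.0 and 80.9, but of 0 in both libraries in the M4 table. Rps26-202, from another gene of the small ribosomal subunit, held 85.9% and 80.9%, with an IsoPct of 86.6 and 82.9. Cd83-202 holds 1 intron whole, while Chic2-202 and Rps26-202 hold no whole intron. For these genes both M21 tables placed most of the TPM in the transcript typed as retained intron. The same held for Ppp1r10-204, from a gene of a regulatory subunit of a nuclear phosphatase, with a share of 80.1% and 77.9% and an IsoPct of 91.2 and 89.8. It also held for Rab8a-202, from a small GTPase gene of vesicle transport, with a share of 81.8% in both libraries and an IsoPct of 75.5 and 72.8. Ppp1r10-204 and Rab8a-202 hold no whole intron either.

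Most others of this ranking had far lower values in the alignment-based tables. Calb1-203, from the gene of the calcium-binding protein calbindin, had TPM values of 13.9 and 11.1 and all of its gene's TPM, while the alignment-based tables listed transcript and gene at 0. Ttyh1-210 had 13.8 and 21.4 TPM and a share of 97.7% and 99.5%, but an IsoPct of 0 in both libraries. For 1110038B12Rik-204 the share was 83.1% and 83.9% and the IsoPct 11.2 and 19.9. AA465934-201 held 88.6% and 78.3%, with an IsoPct of 14.99 and 15.8, and its TPM was 19.4 in replicate 1 and 7.89 in replicate 2. Gm43305-201 held 99.3% and 98.9% of its gene, with an IsoPct of 94.5 and 92.3, and carried the most estimated counts of any member, 25321 and 22418. Its level differed between the tables all the same, with TPM values of 69.6 and 59.4 against 9.28 and 7.70 in the alignment-based ones.

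The 10 members with the widest gap between share and IsoPct all had a share above 85% and an IsoPct of 0 in both libraries. They came from Il23a, a cytokine subunit gene, Calb1, H2-Bl, Ttyh1, Col26a1, Adgrv1, Csmd3, Nfatc4, Rab34 and Dcbld2. In the alignment-based tables their genes stood at 0.46 TPM or less, and 7 of the 10 at 0 in both libraries. Across all members 98 had an IsoPct of 0 in both libraries. For 81 of these 98 the parent gene itself had an aligned TPM of at least 1 in both, so the gene was seen and that member was not. Other retained-intron transcripts of the gene could still be seen. Tpm3-209 was at 0, for example, while the 6 members of Tpm3 had a summed IsoPct of 29.3 and 28.7. IsoPct fell below the share in 3099 members, by over 10 points in 732, and lay above it by over 10 points in 243.

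**Figure D2:**
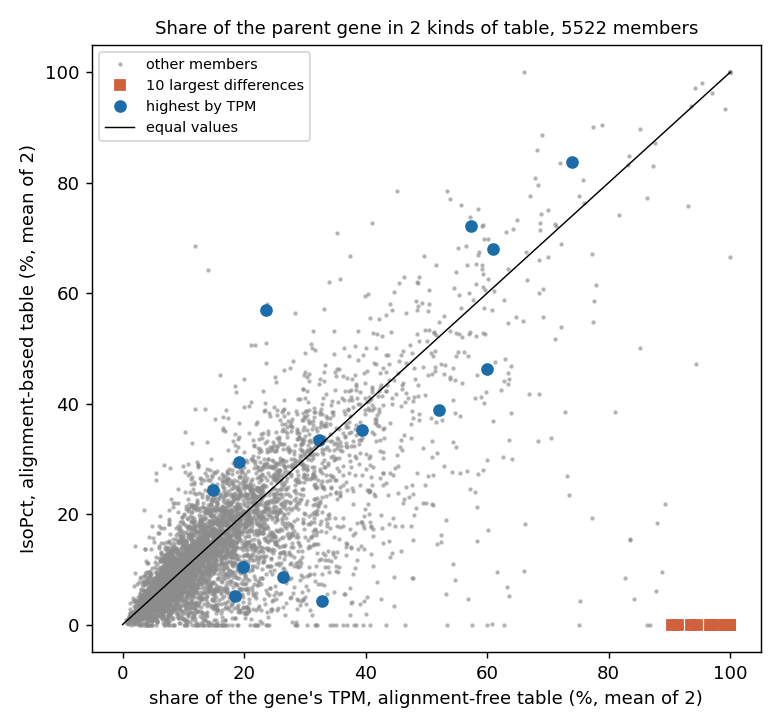
Share of the parent gene's TPM in the alignment-free tables (x axis, %) against IsoPct in the alignment-based tables (y axis, %), each the mean of 2 libraries, for the 5522 members. The 10 largest differences (orange squares) lie at an IsoPct of 0, the highest members by TPM that are reported here are blue circles, and the line marks equal values.

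The members' TPM summed to 26440 and 23009 in the alignment-free tables, but to 13154 and 12186 in the alignment-based ones. The 2 kinds of table were not put on a common scale, so a bar of 1 may not be equally strict in both. By aligned TPM, 2703 members (48.9%) reached 1 in both libraries and 4329 reached 0.5. Conversely, 2788 retained-intron transcripts reached 1 in both libraries by aligned TPM, and 97.0% of those were members. The share that reached 1 by aligned TPM rose with transcript length. It was 36.8% for the 747 members under 500 bases, 45.5% for those from 500 to 1000, 55.3% for those from 1000 to 3000 and 58.0% for the 862 members of 3000 bases or more. The shortest members also had the highest median share (17.2%) and the lowest median IsoPct (9.93), against 12.7% and 13.7 for the longest. The alignment-based tables also give an interval for each TPM, and its lower bound reached 1 in both libraries for 2024 members.

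Members were then counted by gene. A single member was found in 1760 genes, 2 in 705, 3 in 355, 4 in 144 and 5 or more in 117. Summed over its members, the median gene had 28.7% of its TPM in retained-intron form in replicate 1 and 28.1% in replicate 2 (28.4 ± 0.42, SD, n = 2), with a median summed IsoPct of 24.5. In 455 genes (14.8%) the members held at least 50% in both libraries by TPM, in 345 by IsoPct and in 256 by both. In 837 of 3031 protein-coding genes the members' TPM exceeded that of the coding transcripts in both libraries.

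Phip carried the most members, all 12 of its annotated retained-intron transcripts. Together they held 62.4% and 61.2% of its TPM, against 24.8% and 25.3% for its coding transcripts. Map4k2, a kinase gene of stress signalling, had 10 members with 64.4% and 74.6% of its TPM, and its coding transcripts held only 3.32% and 5.90%. Hnrnpk, the gene of an abundant nuclear RNA-binding protein, also had 10, with 54.8% and 52.1%. Rbm5, a splicing regulator gene, had 10 with 52.1% and 52.7%, and Zc3h7a had 9 with 69.3% and 68.7%. The summed IsoPct of these 5 genes ran from 48.2 to 72.7, so both tables gave their retained-intron forms about as much as or more than all their other transcripts.

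Whether a gene had a member depended on its level, as the rule makes it. Of genes at a mean TPM of 1 to 5 with an annotated retained-intron transcript, 12.9% had one, against 50.8% at 5 to 10, 78.8% at 10 to 20, 93.2% at 20 to 50 and 96.5% at 50 or more. The median summed share of the genes with a member was 43.9% in the lowest class, 26.4% at 20 to 50 TPM and 22.3% in the highest. The rule sets this order too, since a member at 1 TPM is a large part of a weakly expressed gene. In all, 3081 of 5951 such genes (51.8%) had a member, with a median summed share of 28.5%. The 20 gene lists below are read beside those values and beside their genes' levels. The median gene level of a list is that of its genes with a member, so it leaves out those without one. Counts in the lists are of expressed genes, at 1 TPM or more in each library, that have an annotated retained-intron transcript.

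Of 31 SR and hnRNP genes, whose proteins bind RNA and steer splice-site choice, 30 had a member, with 98 members in all and a median summed share of 34.5%, at a median gene level of 53.1 TPM. That count matches the 96.5% of all genes at 50 TPM or more. Hnrnpa2b1-208 led this list, followed by Rbm39-205 with TPM values of 58.6 and 45.6 and Hnrnpk-209 with 51.3 and 39.9. Hnrnpk-209 held 17.9% and 16.0% of its gene, with an IsoPct of 27.9 and 24.2. Among spliceosome proteins 24 of 31 genes had a member, with a median summed share of 36.5% at a median gene level of 22.3 TPM. Of all genes at 20 to 50 TPM 93.2% had one, but that class was set by the 24 genes with a member. The level of the others is not given here, so the 77.4% of 31 genes has no matching class. Sf3b1-203, from the gene of a core protein of branch-point recognition, holds 4 introns whole and had TPM values of 33.5 and 30.9, a share of 32.8% and 32.2% and an IsoPct of 27.6 and 28.8.

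Kinases that phosphorylate SR proteins had the highest median summed share among lists of more than 2 genes with a member, 47.5% over 6 of 7 genes. Their median gene level was 23.9 TPM, and of all genes at 20 to 50 TPM 93.2% had a member, with 26.4%. Clk1, known for transcripts with introns that are kept in the nucleus, supplied the 3 highest members of this list. Clk1-209 had TPM values of 47.0 and 45.5, Clk1-204 had 47.3 and 37.6, and Clk1-202 had 26.5 and 19.6. Clk1-204 holds 4 introns whole, 1 of them printed above, and its share of 19.1% and 17.6% matched its IsoPct of 18.8 and 17.6 closely. Factors of nonsense-mediated decay had a member in 4 of 7 genes, and those 4 had a median gene level of 8.17 TPM. Of all genes at 5 to 10 TPM 50.8% had one. The members of these factors were all at low level: Smg1-208 had 2.72 and 2.14 TPM and Smg5-203 had 2.44 and 2.03.

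Nuclear envelope genes had a member in 8 of 10, with a median summed share of 16.1%. Those 8 had a median gene level of 27.4 TPM, and of all genes at 20 to 50 TPM 93.2% had a member, with 26.4%. Lmnb1-202 had TPM values of 5.96 and 4.27, which was 30.4% and 27.9% of lamin B1, and an IsoPct of 28.8 and 30.9. It holds no whole intron. Tpr-208, from a gene of the nuclear pore basket, had 16.5 and 15.9 TPM and a share of 35.0% and 35.2%. Lbr-203, from the lamin B receptor gene, had 5.46 and 4.77 TPM and a share of only 7.60% and 6.72%. The share of these 3 genes held by their highest member thus spanned a wide range, and differed little between the libraries.

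Ribosomal protein genes stood at the other end. Of 60 such genes 58 had a member, at a median gene level of 116 TPM, and of all genes at 50 TPM or more 96.5% had one. The median summed share of the ribosomal list was 7.36%, against 22.3% for that class, and its median summed IsoPct was 4.31. In 9 ribosomal protein genes the members still held at least 50% in both libraries. Rps23-202, for one, had TPM values of 67.1 and 91.6 and a share of 59.4% and 68.0%, with an IsoPct of 38.2 and 50.7. Ribosomal protein genes have many processed pseudogenes, near-identical to the spliced transcript, so the split of their reads is uncertain. Among translation factors 16 of 19 genes had a member, with a median of 27.3% at a median gene level of 31.6 TPM. For all genes at 20 to 50 TPM the values were 93.2% and 26.4%. Eif4a2-218 led the translation factors, with TPM values of 44.9 and 42.6 and a share of 17.2% and 18.6%. Eef1a1-202, from an elongation factor gene, had 38.1 and 29.2 TPM but only 5.78% and 4.79% of its gene.

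Early-response genes, which are switched on within minutes of a stimulus, had a member in 10 of 10 genes with a median summed share of 38.7%. Their median gene level was 28.4 TPM. Of all genes at 20 to 50 TPM 93.2% had a member, with a median summed share of 26.4%. Dusp1-203, from a phosphatase gene that ends kinase signalling, had TPM values of 64.4 and 53.8 and a share of 44.7% and 41.2%. Dusp2-202, from a related phosphatase gene, had 21.6 and 16.9 TPM and held 77.3% and 74.7% of its gene, with an IsoPct of 77.7 and 74.9. Both tables therefore put most Dusp2 transcripts in the retained-intron form. The 1 member in the monocyte list, Nr4a1-204, comes from another early-response gene and had 11.0 and 10.6 TPM.

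Among neutrophil markers 6 of 8 genes had a member, with a median summed share of 18.8%. After Il1b-203 and S100a8-202 came Clec4d-202, from a C-type lectin receptor gene, with TPM values of 24.6 and 22.1 and a share of 30.4% and 27.7%. In the list of oxidase, adhesion and chemoattractant reception 9 of 10 genes had one, with a median of 26.9% at a median gene level of 39.8 TPM. For all genes at 20 to 50 TPM the values were 93.2% and 26.4%. Fcgr3-203, from a gene for a receptor of antibodies, had 13.2 and 17.2 TPM. The neutrophil marker genes with a member had a median level of 75.8 TPM. Of all genes at 50 TPM or more 96.5% had a member, with a median summed share of 22.3%. The level of the marker genes without a member is not included. Il1b-203 and S100a8-202 were among the 15 highest of all members.

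Myeloid signalling and transcription factors had a member in 20 of 23 genes with a median of 28.2%. Ptprc-210, from the gene of the leukocyte surface phosphatase CD45, had 26.5 and 24.6 TPM and a share of 7.44% and 7.99%. Cytokines, chemokines and their receptors had one in 12 of 15 genes with a median of 26.9%. Il17ra-203, from a receptor gene of interleukin 17, had 24.0 and 20.8 TPM and a share of 43.5% and 40.8%. Ccl6-202 had 36.0 and 38.7 TPM, and its share of 19.9% and 24.1% stood against an IsoPct of 2.21 and 3.12. The genes with a member had a median level of 34.6 TPM in the myeloid list and 33.8 TPM in the cytokine list. Of all genes at 20 to 50 TPM 93.2% had a member, with a median summed share of 26.4%. The median shares of both lists were close to that value.

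Antigen presentation genes, of MHC class I as well as class II, had a member in 21 of 21, with a median summed share of 37.2%. Their median gene level was 33.6 TPM, and of all genes at 20 to 50 TPM 93.2% had a member, with 26.4%. Genes that mark other blood cells carried members as well, B-cell markers in 6 of 7, with 19.7% at a median gene level of 68.0 TPM. For all genes at 50 TPM or more the values were 96.5% and 22.3%. Fcer2a-202, from a gene for a receptor of antibodies on B cells, had TPM values of 13.9 and 14.0, a share of 19.3% and 21.4% and an IsoPct of 24.9 and 27.1. T-cell and natural killer markers had one in 2 of 10 genes. Those 2 genes had a median level of 6.21 TPM, and the level of the others is not given here. The count therefore has no matching level class. Of all genes at 1 to 5 TPM 12.9% had one, and of those at 5 to 10 TPM 50.8%. Lck-203, from a T-cell kinase gene, was at a low level of 2.65 and 5.03 TPM. The platelet factor gene had Pf4-202 at 2.53 and 2.92 TPM. Since members of B-cell and red-cell genes were among those measured, the part of other cells in the whole set of members was not tested. Interferon-response genes had a member in 3 of 7, and those 3 had a median gene level of 7.60 TPM. Of all genes at 5 to 10 TPM 50.8% had a member. Oasl2-208 led the interferon list, with 7.39 and 6.22 TPM. Of the long non-coding RNAs, Gas5 and Mirt1 had 11 members together, and Gas5-218 holds 10 introns whole, with TPM values of 13.3 and 12.5.

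**Figure D3:**
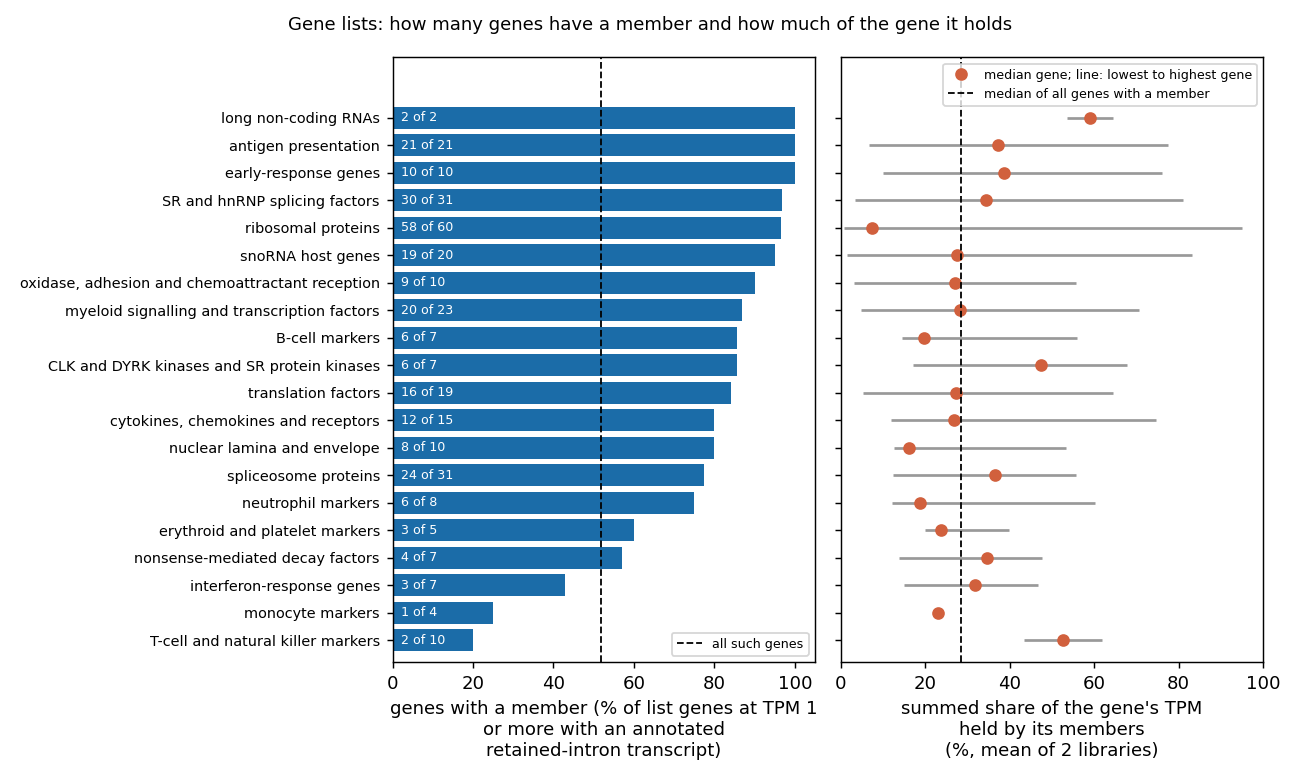
Left, percent of the genes in each of 20 lists (at a TPM of at least 1, with an annotated retained-intron transcript) that have a member, with the counts in the bars. Right, the summed share of the gene's TPM held by its members, with the median gene as a point and a line from the lowest to the highest gene; dashed lines mark all such genes (51.8% and 28.5%). Ribosomal protein genes combine a high percent with the lowest median, 7.36%.

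The structure of the members was not used by the rule. Against the annotation, 1778 members (32.2%) held a whole intron of another transcript of the gene, 696 of them more than 1. A further 3682 (66.7%) held no whole intron but began or ended inside one, and 62 did neither. The annotated retained-intron transcripts that were not members were much the same, with 32.1% and 66.2%. By end, 2273 members (41.2%) had no whole intron and their 3′ end inside an intron, and 1922 (34.8%) their 5′ end, with some counted under both. Members with a whole intron held a median of 13.05% and 12.7% of their gene and members without one 14.7% and 14.4%, while for IsoPct the order was the other way, 13.1 in both libraries against 11.4 and 11.2. The median member had 360.5 bases in no exon of another transcript type of its gene, which is 43.3% of its length.

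The members with a whole intron held 3083 distinct introns, and these were short. Their median length was 330 bases, against 1201 for all 47855 introns of coding transcripts in the same genes, and 48.0% against 20.7% were at most 300 bases. The introns held by other annotated retained-intron transcripts were shorter still, with a median of 277 bases. Median GC content was 48.4% for the members' introns and 51.9% for the others. GT at the start and AG at the end marked 97.6% of the members' introns, and GC with AG a further 1.69%.

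**Figure D4:**
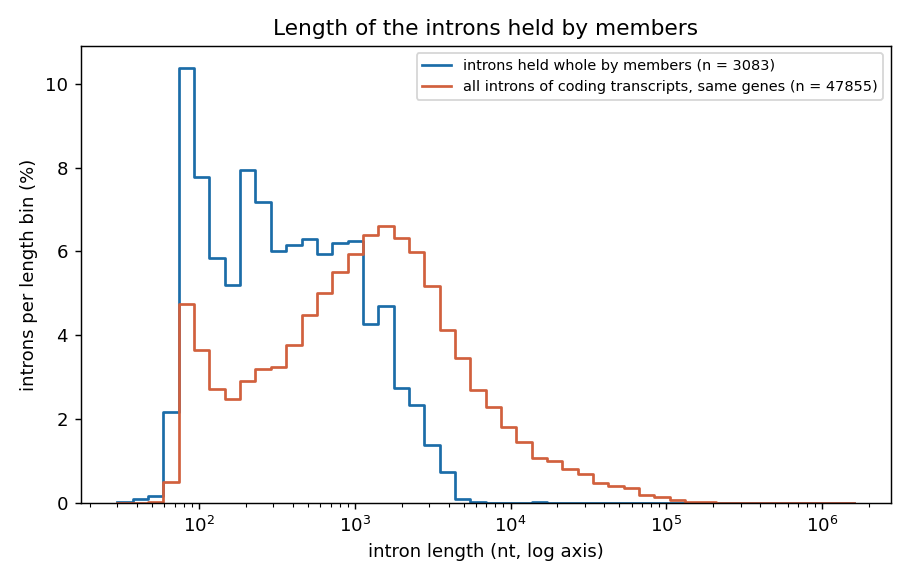
Distribution of intron length (log axis) for the 3083 introns held whole by members (blue) and for all 47855 introns of coding transcripts in the same genes (orange), as percent of introns per length bin. The blue curve peaks below 100 bases and lies to the left of the orange one, with medians of 330 and 1201 bases.

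A rare class of intron is removed by a separate, minor spliceosome and often opens with ATATCCT or GTATCCT. Of the members' introns 20 (0.65%) opened with one of those runs, read on the gene's strand only, against 0.55% of the introns in other annotated retained-intron transcripts. Snrnp48-204, from the gene of a protein of the minor spliceosome itself, had 5.10 and 4.25 TPM and a share of 16.3% and 20.4%.

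Most retained introns interrupted the reading frame. Of the 2265 that lay between coding exons, 2066 (91.2%) held a stop codon in frame, against 88.1% for other annotated retained-intron transcripts. A length that is a multiple of 3 together with no stop was found in 62 (2.74%). Gapdh-206 was the highest member with such an intron, at 64.7% and 60.8% of its gene and an IsoPct of 61.0 and 56.5. Others were Cd55-205, from a gene that protects cells from complement, with TPM values of 26.5 and 21.7, and Gsdmd-206, from the gene of the pore-forming protein gasdermin D, with 9.74 and 8.27. The Gsdmd intron is 99 bases long, and the transcript's IsoPct of 41.0 and 36.3 lay above its share of 24.8% and 21.8%. These members of the class beyond Gapdh-206 were picked for mention after their values were seen.

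Some members carry another RNA gene within their exons. A small RNA gene lay inside 83 members of 61 genes, a small nucleolar RNA (snoRNA, a guide for chemical marks on ribosomal RNA) in 53 and a microRNA in 29. Reads of the small RNA and of the longer transcript cannot be told apart where they overlap. Ppp1r10-204 spans Mir1894, Eif4a2-218 spans Snora81 and Gas5-218 spans Snord78. Of the snoRNA host genes 19 of 20 had a member, with a median summed share of 27.6% at a median gene level of 99.7 TPM. For all genes at 50 TPM or more the values were 96.5% and 22.3%. A gene on the opposite strand overlapped 747 members (13.5%), and another long gene on the same strand 267. Members with and without an overlap on the opposite strand had similar median shares, 14.2% and 14.0% in replicate 1 and 13.9% and 13.8% in replicate 2.

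Between the 2 libraries most members were close. A 2-fold difference in TPM + 1 was seen in 89 members (1.61%), 19 higher and 70 lower in replicate 2, against 3.02% of all transcripts that passed the TPM threshold, 1.19% higher and 1.83% lower. The median member was lower in replicate 2 by -0.14 on the log2 scale, as was the median of all such transcripts (-0.13). Rescaled to protein-coding genes, the shift was -0.04 for members and -0.02 for all. With that scale, which changes both the offset between the libraries and the weight of the added 1, 193 members differed 2-fold. No count over all transcripts was made on that scale, so the 193 cannot be compared with a background.

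Among the 5 members with the largest fold towards replicate 2, several hold a snoRNA gene. AC121821.1-204, which spans Snora74a, had TPM values of 4.29 in replicate 1 and 28.4 in replicate 2. Dancr-202, which spans Snora26, had 5.69 and 19.8. Others were Tpm3-209, from a tropomyosin gene, with 2.12 and 10.2, and S100a6-202, from a calcium-binding protein gene, with 10.5 and 35.6. Among the 19 higher members 8 hold a small RNA gene, and among the 70 lower ones none does. Of the 83 members with such a gene 9.64% were 2-fold higher in replicate 2, against 0.20% of the 5439 without. Of the 53 members with a snoRNA gene inside, 21 (39.6%) were higher in replicate 2, with a median of -0.05 on the log2 scale. Among all members 1597 (28.9%) were higher in replicate 2, with a median of -0.14. snoRNA genes as a class took 4.52% of all TPM in replicate 1 and 7.52% in replicate 2. Of the snoRNAs inside members that were higher in replicate 2, Snora26 had 43.6 and 56.1 TPM. Snord21, inside Rpl5-204, had 1088 and 1730. Snora74a went the other way, with 3298 and 2222. The part of snoRNA reads in these differences was not tested.

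The members that were lower in replicate 2 were short. Of the 70, 36 (51.4%) were under 500 bases, against 13.5% of all members. Psme2-203, from a gene of a proteasome activator, is 185 bases long and had TPM values of 7.33 and 1.09. Ctla2a-208 had 8.07 and 1.85, Ncor1-224 had 5.63 and 1.09, and Capns1-207 had 5.34 and 1.08. Psme2-203 rested on 32.2 and 5.27 estimated counts, while Ctla2a-208 rested on 165 and 40.2. The alignment-based tables gave Psme2-203 and Ncor1-224 an aligned TPM of 0 in replicate 2. Across the 89 differing members 83 had at least 50 counts in the higher library. The part of transcript length in these differences was not tested.

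**Figure D5:**
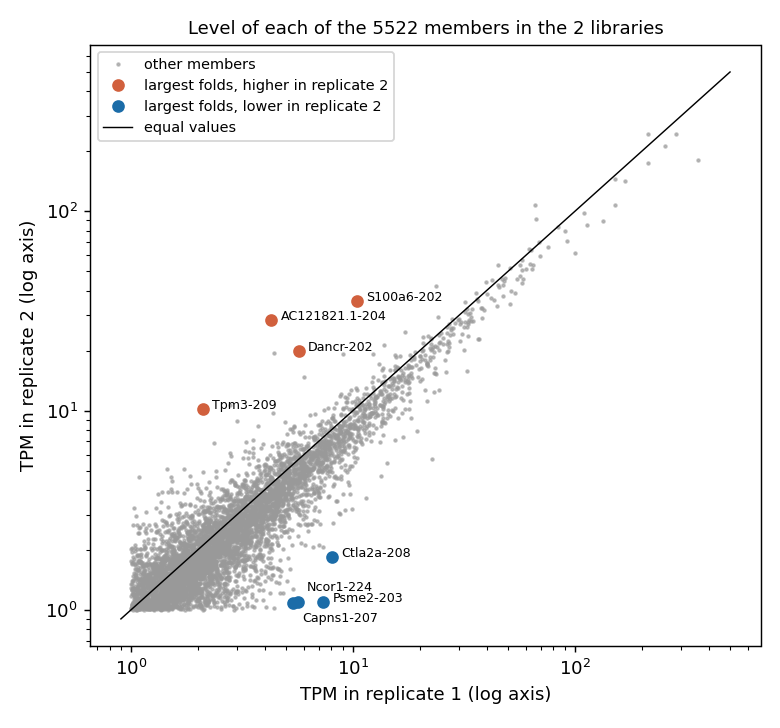
TPM of each of the 5522 members in replicate 1 (x, log axis) and replicate 2 (y, log axis). Members with the largest (TPM + 1) folds in each direction that are reported here are named, those higher in replicate 2 in orange and those lower in blue; the line marks equal values, and most members lie near or slightly below it.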

How the data were processed

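Total RNA of 2 neutrophil libraries was analysed, with depth as given in the report. The authors deposited transcript tables on mm10. The alignment-free M21 table holds estimated counts and TPM by transcript, per the file headers. The alignment-based M21 and M4 tables give an expected count, a TPM with interval bounds and IsoPct, a percent of the gene's TPM, per the file headers. Their parents, per the deposited file list, are transcriptome alignments, and for the alignment-free table the reads and 1 further file. Programs, versions and strand setting: not given in the sources used here. Deposited gene tables were not used.

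Share is a member's TPM divided by the summed TPM of its gene. Introns are those of at least 30 bases in other transcripts of the gene, from the GENCODE M21 annotation, which matched all 5522 members. Spike-in entries held 39 and 30 counts. Values are means over 2 libraries with their SD, and with 1 group no test was run. Folds use a pseudocount of 1. Python 3.11.15, numpy 2.4.6, pandas 2.3.3 and matplotlib 3.10.9 were used, and the scripts were tested on simulated data.

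The members and the 20 gene lists (483 entries) were chosen with earlier results of these data known. Named members are the 15 highest by mean TPM, the 10 highest by share in genes with summed TPM of 10 or more, and the 10 with the largest gap between share and IsoPct. The 5 largest folds in each direction, the 3 just inside and the 3 just outside the threshold, the 3 highest per list and the 5 genes with most members were added, not all of which are described. Some members that meet these rules are not reported here. Sequences are those of the highest members with an intron of at most 300 bases outside chromosome 18, between coding exons, with GT, GC or AT at the start and AG or AC at the end, 1 per gene. The alternatives were each library alone, other TPM thresholds, the alignment-based and M4 tables, rescaled TPM, a count minimum, shares by counts, members overlapping no other gene, and a smaller pseudocount.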

Additional observations from a re-analysis of the deposited data

How the results depend on the processing

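The number of members followed the threshold: 8540 at 0.5 TPM, 2860 at 2 and 889 at 5. It was 2788 by the TPM of the alignment-based table and 12200 after rescaling to protein-coding genes. With either library alone it ran from 6196 to 6864, the median TPM from 2.05 to 2.18, the median share of the gene was 13.8% with either, the median IsoPct ran from 11.6 to 11.8 and the members at 50% or more from 264 to 290. Median share and IsoPct were 12.6% and 10.7 at a threshold of 0.5, 15.7% and 13.6 at 2, and 18.7% and 15.8 at 5. Median share was 7.66% by estimated counts and 11.9% by IsoPct. For members with an aligned TPM of at least 1 in both libraries, a choice made after seeing the data, it was 14.1%. Median IsoPct in the M4 table was 12.0 over the 3629 members listed there, for which the M21 value was 11.8. Members 2-fold apart numbered 241 with a pseudocount of 0.1 and 193 after rescaling, with no count over all transcripts at either setting. A count minimum of 10, leaving out members that overlap another gene, and the alignment-based table for 2-fold differences moved values by less than the spread between libraries or 1.5 times. No paired analysis was possible because there is 1 group. Depth limits the lowest members, and with 1 donor identifier for both, the spread may not cover differences between animals.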
